A study of Rattus norvegicus with 24 samples.

Results

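The cell cycle genes described here are Top2a, Cdk1, Ccnb1, Ccnb2, Ccnd1, Ccnd2, Pcna, Cdkn1a, Mki67 and Cdc20. They were followed in rat dorsal root ganglia (DRG) after a course of vincristine, a drug that blocks cell division. Members were chosen by symbol alone: a probe belonged to the set when the annotation of the array platform gave it 1 of these 10 names. Of the 10 genes, 8 had 1 probe each, out of 13336 genes named on the array of 22517 probes, while Top2a and Mki67 had no probe assigned in the annotation used here and were not analysed.

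Gene expression was measured with Illumina RatRef-12 bead arrays in lumbar DRG (L2 to L5) of 24 male Sprague-Dawley rats aged 3 months, each rat having its own array, in 6 groups of 4. Rats of the vincristine-morphine, vincristine-oxycodone and vincristine-saline groups received vincristine at 0.1 mg/kg/day on 10 days, and rats of the saline-morphine, saline-oxycodone and saline-saline groups, called control rats below, received saline on the same days. Morphine, oxycodone (both opioids at the same dose) or saline was then given for 5 days, and ganglia were taken on day 19, so every rat had 2 courses of injections. The vincristine course had ended before the second treatment began, so the ganglia were taken days after the last vincristine dose. The comparisons asked what vincristine changed in the ganglia and whether the opioids morphine and oxycodone differed in vincristine-treated and in control rats.

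Division proceeds through cyclins, which rise and fall in turn and switch on the cyclin-dependent kinases. D-type cyclins act in G1, the phase before DNA is copied, the clamp Pcna serves in DNA replication, and B-type cyclins with Cdk1 drive the cell into mitosis, from which the anaphase-promoting complex with its activator Cdc20 lets it leave. Vincristine binds tubulin and prevents spindle assembly, so that dividing cells are held in mitosis. Sensory neurons are post-mitotic, and the cells of a ganglion that can divide are satellite glia, Schwann cells, fibroblasts, endothelial cells and macrophages.

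Genes of the mitotic group are known to share a pair of promoter elements, the CCAAT box (CCAAT) and the cell cycle genes homology region, or CHR (TTTGAA), and the promoters are shown because the pair recurs in most of the mitotic members. Windows of 250 bases before the start that the promoter table assigns to each gene came from RefSeq on the build GRCr8 and were found for 8 of the 10 members, Ccnd1 and Ccnd2 having no entry. Both strands were searched, and a TTTGAA and a CCAAT share 1 base in Mki67. Of all 33469 such windows 16.2% held TTTGAA, 34% held CCAAT and 5.87% held both. Both occurred in 5 members, namely Top2a (the topoisomerase that untangles sister chromatids), Cdk1, Ccnb2, Mki67 (the proliferation marker Ki-67) and Cdc20. Ccnb1 and Pcna held CCAAT without TTTGAA, and Cdkn1a held neither. Only these exact letters were searched, so any other form of the CHR was not counted. The E2F forms TTTCCCGC and TTTGGCGC, held by 1.21% of all windows, occurred in none of the 8. The last 120 bases before that start follow for the 4 mitotic members with a probe, 5′ to 3′ on the strand of the gene, with TTTGAA and CCAAT in capitals (ATTGG is CCAAT read on the other strand). They lie at chr20:19265173-19265292 on the plus strand (Cdk1), chr2:33655226-33655345 on the minus strand (Ccnb1), chr8:79981659-79981778 on the minus strand (Ccnb2) and chr5:137255800-137255919 on the minus strand (Cdc20). By the outer bounds of the gene in the annotation, 41 of the 120 bases of Cdk1 and 59 of those of Ccnb2 lie inside the gene, and 0 of those of Ccnb1 and Cdc20.
Cdk1: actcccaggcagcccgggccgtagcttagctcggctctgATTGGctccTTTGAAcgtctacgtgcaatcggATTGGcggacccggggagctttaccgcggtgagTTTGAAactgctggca
Ccnb1: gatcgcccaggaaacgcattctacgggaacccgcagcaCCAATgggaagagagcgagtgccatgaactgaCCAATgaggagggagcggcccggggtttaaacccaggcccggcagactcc
Ccnb2: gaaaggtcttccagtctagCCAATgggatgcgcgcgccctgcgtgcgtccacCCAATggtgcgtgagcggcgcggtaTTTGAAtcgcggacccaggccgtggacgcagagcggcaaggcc
Cdc20: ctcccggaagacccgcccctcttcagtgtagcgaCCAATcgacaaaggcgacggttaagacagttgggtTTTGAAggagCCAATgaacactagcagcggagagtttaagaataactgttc
A match is a run of letters and was not tested for binding.

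Detection divided the 8 probes into 3 classes. Each array gives every probe a detection p-value, the share of negative control probes at least as bright as it, and the strict level of 0.0005 means that no control was as bright. Ccnd1 (cyclin D1), Pcna and Ccnb2 (cyclin B2) reached the strict level on 24 of 24 arrays. Their bead signals, on the linear scale of the scanner and not normalized, had the lowest, median and highest values of 457, 913 and 1422 for Ccnd1, 965, 1387 and 2442 for Pcna, and 109, 150 and 240 for Ccnb2. So these 3 probes were measured in every ganglion sample of every group.

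Cdk1 and Cdc20 formed the class at the edge of detection. Neither reached the strict level on any of the 24 arrays, and both were below a detection p of 0.05 on all 24. The detection p of Cdk1 was between 0.001212 and 0.003636 and its signal had the lowest, median and highest values of 73.9, 93.4 and 143. That of Cdc20 was between 0.002424 and 0.003636, with signals of 66.8, 84.6 and 122. The least bright probe at the strict level had a signal of 96.6 to 164 depending on the array, so differences of Cdk1 and Cdc20 were measured just over background.

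Ccnb1 (cyclin B1), Ccnd2 (cyclin D2) and Cdkn1a (the kinase inhibitor p21, a target of p53) were not above background on any array. The detection p had a range of 0.165 to 0.731 for Ccnb1, 0.210 to 0.964 for Ccnd2 and 0.138 to 0.823 for Cdkn1a. Their signals were 40.7 to 62.9, 37.3 to 60.8 and 36.7 to 58.1 over the arrays, in the order of the genes just named. No vincristine-treated rat and no control rat had a detectable value for these 3 genes, so no fold change is given for them. A probe at background says that this probe saw no signal at this sensitivity, not that the transcript was absent.

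**Figure D1:**
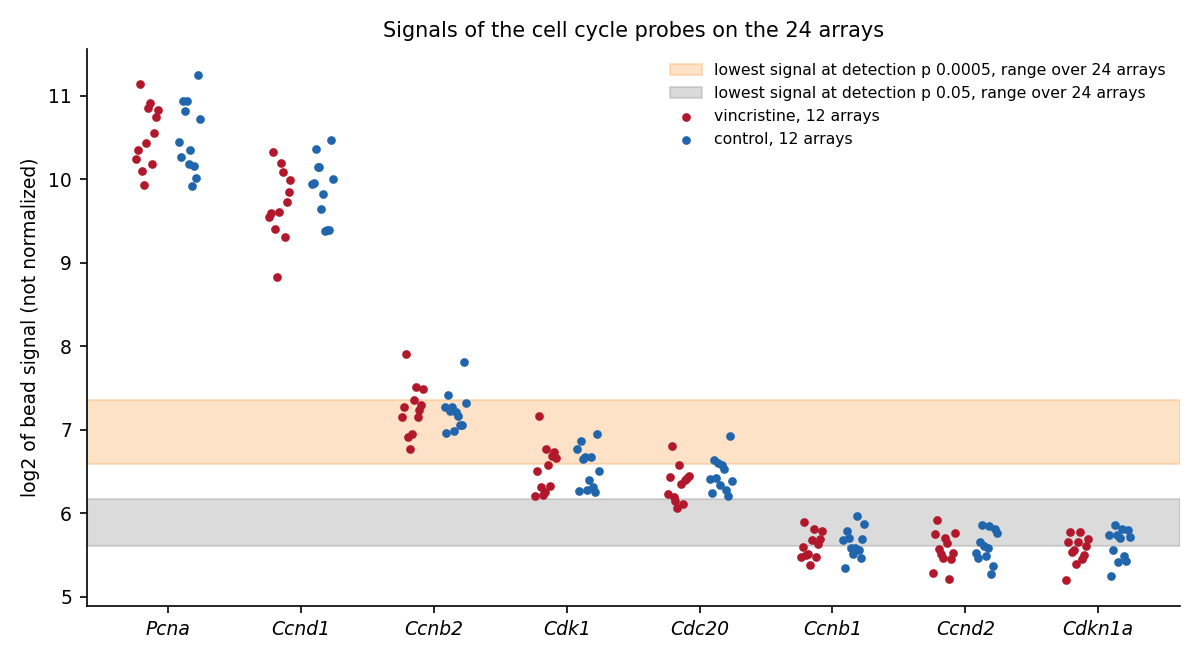
Bead signals of the 8 cell cycle probes, with the log2 of the not normalized signal on the vertical axis and 1 point per rat, vincristine-treated rats (12) left of control rats (12) for each gene. The orange and grey bands give the range over the 24 arrays of the least bright signal at detection p 0.0005 and 0.05. Ccnb1, Ccnd2 and Cdkn1a lie in or under the grey band in all rats.

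The arrays differed in ways that bear on these values. Between 6112 and 6907 probes per array reached the strict level, and the median signal was 48.6 to 72.8. In the table of signals the columns fall into 4 blocks of 6 adjacent arrays in which each group is present once, called sets here. Of the variance of all probes kept, the leading principal component carried 43.3%, and 99.4% of that component lay between sets. No label says what a set is. Markers of sensory neurons were above the strict level for 11 of 14 genes with a probe, among them Prph, Scn10a, Trpv1 and Tac1, as were 6 of 7 of satellite glia and 5 of 6 of myelinating Schwann cells, so the labelled tissue had its defining markers. Genes of skeletal muscle stood high (list mean over 7.5 on the normalized log2 scale) on 6 arrays, 5 from vincristine-treated rats and 1 from a control rat.

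Vincristine-treated rats were compared with control rats over all 3 second treatments, 12 rats against 12. Of the 3 members above the strict level, 0 passed an adjusted p of 0.05 in limma, against 14 of all 7043 probes (0.199%). Of Cdk1 and Cdc20, tested among the 12740 probes that a looser detection filter kept, 0 passed, against 0.196% of those probes. At an unadjusted p under 0.05 the counts were 1 of 3 (Ccnd1, background 2.77%) and 1 of 2 (Cdc20, background 3.24%). Ccnd1 and Cdc20 also stand in gene lists that the study drew up on these same arrays, and for that reason are not independent of them. All values below are normalized log2 signals, in which a difference of 1 is a doubling. The p-values rest on the spread between arrays within groups. That spread holds differences between rats and, unless the sets are a block, between sets.

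Ccnd1, the G1 cyclin that passes growth factor signals on to the kinases Cdk4 and Cdk6, was lower in vincristine-treated rats at an unadjusted p. Its values were 9.85, 9.53, 9.78 and 9.65 in vincristine-morphine treated rats, against 9.77, 10.08, 9.96 and 9.97 in saline-morphine treated rats. In vincristine-oxycodone treated rats they were 9.24, 9.78, 9.85 and 9.87, against 9.81, 9.88, 9.86 and 9.76 in saline-oxycodone treated rats. In vincristine-saline treated rats they were 9.61, 9.67, 9.61 and 9.81, against 9.70, 9.78, 9.82 and 9.98 in saline-saline treated rats. Values of the 2 arms overlapped within each pair of groups, and the lowest of all 24 came from a vincristine-oxycodone treated rat. The mean was 9.69 ± 0.18 in vincristine-treated rats and 9.87 ± 0.11 in control rats (SD, n = 12 each). The difference was -0.18 (SE 0.065, 95% confidence interval -0.31 to -0.044), a ratio of 0.884, with an unadjusted p of 0.0117 and an adjusted p of 0.9996 in limma. It was negative within 4 of 4 sets. A permutation test of this single gene over 100000 regroupings, which ignored set and second treatment, gave a two-sided p of 0.0044. With the sets as a block the adjusted p in limma was 0.316. Leaving out vincristine-oxycodone replicate 1 gave -0.13, and leaving out the 6 arrays with high muscle transcripts gave -0.27. In bulk ganglia, fewer cells of a type and less RNA per cell cannot be told apart.

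The largest pairwise difference of Ccnd1 was that of vincristine-morphine treated against saline-morphine treated rats. It was -0.24 (SE 0.11, 95% confidence interval -0.47 to -0.0086, unadjusted p 0.0428 and adjusted p 0.9999 in limma), with 4 of 4 sets negative. An exact permutation test over the 70 regroupings gave a two-sided p of 0.0857, the smallest that 4 against 4 rats can reach being 0.0286. With 1 of 3 members at an unadjusted p under 0.05, the background was 2.2%. No test of interaction found Ccnd1 to respond differently with the second treatment, all 3 differences of differences lying between -0.096 and 0.0032 with adjusted p of at least 0.9997 in limma. Within the arms the differences of Ccnd1 between morphine, oxycodone and saline were 0.0060 to 0.12, with unadjusted p of at least 0.287 in limma.

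Pcna, the sliding clamp of DNA replication and repair, had the lowest, median and highest values of 10.32, 10.54 and 10.70 in vincristine-treated rats, against 10.30, 10.46 and 10.70 in control rats. The ranges of the arms lay on top of each other. The difference was 0.042 (SE 0.055, 95% confidence interval -0.073 to 0.16, adjusted p 0.9996 in limma). The upper limit of that interval, over all 3 second treatments, is a 1.11-fold higher level in vincristine-treated rats. Over the comparisons of 1 group with another, Pcna differed by -0.11 to 0.12, with no unadjusted p under 0.228.

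Ccnb2, the cyclin B that accompanies Cdk1 at the Golgi, was the mitotic member above the strict level. Its lowest, median and highest values were 6.67, 6.87 and 7.22 in vincristine-treated rats, against 6.63, 6.91 and 7.16 in control rats. The difference was 0.036 (SE 0.068, 95% confidence interval -0.11 to 0.18, adjusted p 0.9996 in limma), positive in 2 sets and negative in 2. Sets took 45.7% of its variance over the 24 arrays and groups 27.4%.

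In control rats Ccnb2 was set apart under morphine. Values were 6.73, 6.81, 6.78 and 6.78 in saline-morphine treated rats, against 6.95, 7.11, 6.96 and 7.0 in saline-saline treated rats. These groups did not overlap. The difference was -0.23 (SE 0.12, 95% confidence interval -0.48 to 0.013, unadjusted p 0.0621 and adjusted p 1.0000 in limma), negative in 4 of 4 sets. The exact permutation p was 0.0286, the smallest possible, and 1.24% of all 7043 probes likewise did not overlap between these groups. That p and the sign in the sets follow from the lack of overlap and add nothing to it. With the sets as a block the unadjusted p was 0.0087, where 5.57% of all probes were under 0.05, and the adjusted p was 0.701.

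Ccnb2 in saline-morphine treated rats had an SD of 0.031, against 0.072 to 0.22 in the other 5 groups, with no test of the spread. Vincristine-morphine treated rats had 7.22, 6.91, 7.16 and 6.75, which overlapped the saline-morphine treated rats above and differed from them by 0.23 (SE 0.12, unadjusted p 0.0604 and adjusted p 0.9999 in limma). With the sets as a block the unadjusted p was 0.0083, where 6.4% of all 7043 probes were under 0.05, and the adjusted p was 0.633. That difference was 0.057 once the 6 arrays with high muscle transcripts were left out. The interaction of vincristine with morphine against saline was 0.28 (SE 0.17, unadjusted p 0.109 and adjusted p 0.9999 in limma). With the sets as a block its unadjusted p was 0.0225 (3.89% of all probes under 0.05) and its adjusted p 0.998, so a different response to morphine in the 2 arms did not pass the threshold.

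Cdc20, which activates the anaphase-promoting complex and is held back by the spindle checkpoint when a spindle poison is present, had the lowest p of any member. Vincristine-oxycodone treated rats had 5.64, 5.52, 5.69 and 5.37, against 5.74, 5.96, 6.0 and 6.04 in saline-oxycodone treated rats. All 4 vincristine-oxycodone treated rats lay below all 4 saline-oxycodone treated rats. The difference was -0.38 (SE 0.094, 95% confidence interval -0.58 to -0.18), a ratio of 0.768, with an unadjusted p of 0.000569 and an adjusted p of 0.624 in limma, the 11th smallest of 12740. It was negative in 4 of 4 sets, and the exact permutation p was 0.0286. Both follow from the lack of overlap and add nothing to it. The adjusted p in limma with the sets as a block was 0.237. Of all 12740 probes 1.86% did not overlap between these groups and 3.48% had an unadjusted p under 0.05. Without background correction the difference was -0.23.

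In the other pairs Cdc20 overlapped. It had 5.93, 5.67, 5.75 and 5.64 in vincristine-morphine treated rats, against 5.53, 5.80, 5.75 and 5.57 in saline-morphine treated rats, a difference of 0.086 (SE 0.094). In vincristine-saline treated rats it had 5.61, 5.65, 5.57 and 5.63, against 5.73, 5.85, 5.89 and 5.56 in saline-saline treated rats, a difference of -0.15 (SE 0.094). Neither passed an unadjusted p of 0.05. Over all pairs the mean was 5.64 ± 0.13 in vincristine-treated rats and 5.79 ± 0.17 in control rats (SD, n = 12 each), a difference of -0.15 (SE 0.054, 95% confidence interval -0.26 to -0.033, unadjusted p 0.0134 and adjusted p 0.9997 in limma). It was negative in 4 of 4 sets, with a permutation p of 0.0299, and on the values the authors had normalized it was -0.090.

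Among control rats Cdc20 was lower under morphine than under oxycodone by an unadjusted p. The difference, saline-morphine minus saline-oxycodone, was -0.27 (SE 0.094, 95% confidence interval -0.47 to -0.078, unadjusted p 0.0084 and adjusted p 0.9999 in limma), negative in 4 of 4 sets, with 3.74% of all 12740 probes at such a p. The groups overlapped and the exact permutation p was 0.0857. It fell to -0.097 when arrays were centred on their median in place of quantile normalization, a setting under which the median of all probes in this comparison was 0.19, and was -0.17 without background correction. Among vincristine-treated rats the same difference, vincristine-morphine minus vincristine-oxycodone, was 0.19 (SE 0.094, unadjusted p 0.0528 and adjusted p 1.0000 in limma), positive in 2 of 4 sets. The interaction of vincristine with morphine against oxycodone was 0.47 (SE 0.13, 95% confidence interval 0.19 to 0.74, unadjusted p 0.0021, 10th smallest of 12740, and adjusted p 0.9999 in limma), against a background of 3.24% at such a p. These contrasts share the oxycodone groups, and all lay in signals just over background. Against saline-saline treated rats Cdc20 differed by 0.18 under oxycodone (SE 0.094, unadjusted p 0.0734 in limma). Under morphine it differed by -0.096 (SE 0.094, unadjusted p 0.320 in limma). Against vincristine-saline treated rats it differed by -0.057 in vincristine-oxycodone and by 0.14 in vincristine-morphine treated rats (SE 0.094 each, unadjusted p 0.549 and 0.164 in limma).

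Cdk1, the kinase that drives entry into mitosis, had the lowest, median and highest values of 5.75, 5.93 and 6.22 in vincristine-treated rats, against 5.69, 5.89 and 6.34 in control rats. The difference was 0.0010 (SE 0.064, 95% confidence interval -0.13 to 0.13, adjusted p 0.9997 in limma). It was positive in 2 sets and negative in 2.

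The vincristine-saline treated rats were tight and high for Cdk1, at 6.0, 6.07, 6.02 and 5.98, against 5.81, 5.94, 5.93 and 5.79 in saline-saline treated rats. These groups did not overlap, nor did the vincristine-oxycodone treated rats at 5.75, 5.85, 5.96 and 5.76 overlap the vincristine-saline treated rats. In limma the differences were 0.15 (SE 0.11, unadjusted p 0.185) and -0.19 (SE 0.11, unadjusted p 0.104), with adjusted p of 1.0000 and 0.9999, since that fit pools the spread over all groups. The exact permutation p was 0.0286 for each, which follows from the lack of overlap and adds nothing to it. Of the 12740 probes 1.64% and 1.24% did not overlap in these comparisons. Both contrasts use the same vincristine-saline treated rats.

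**Figure D2:**
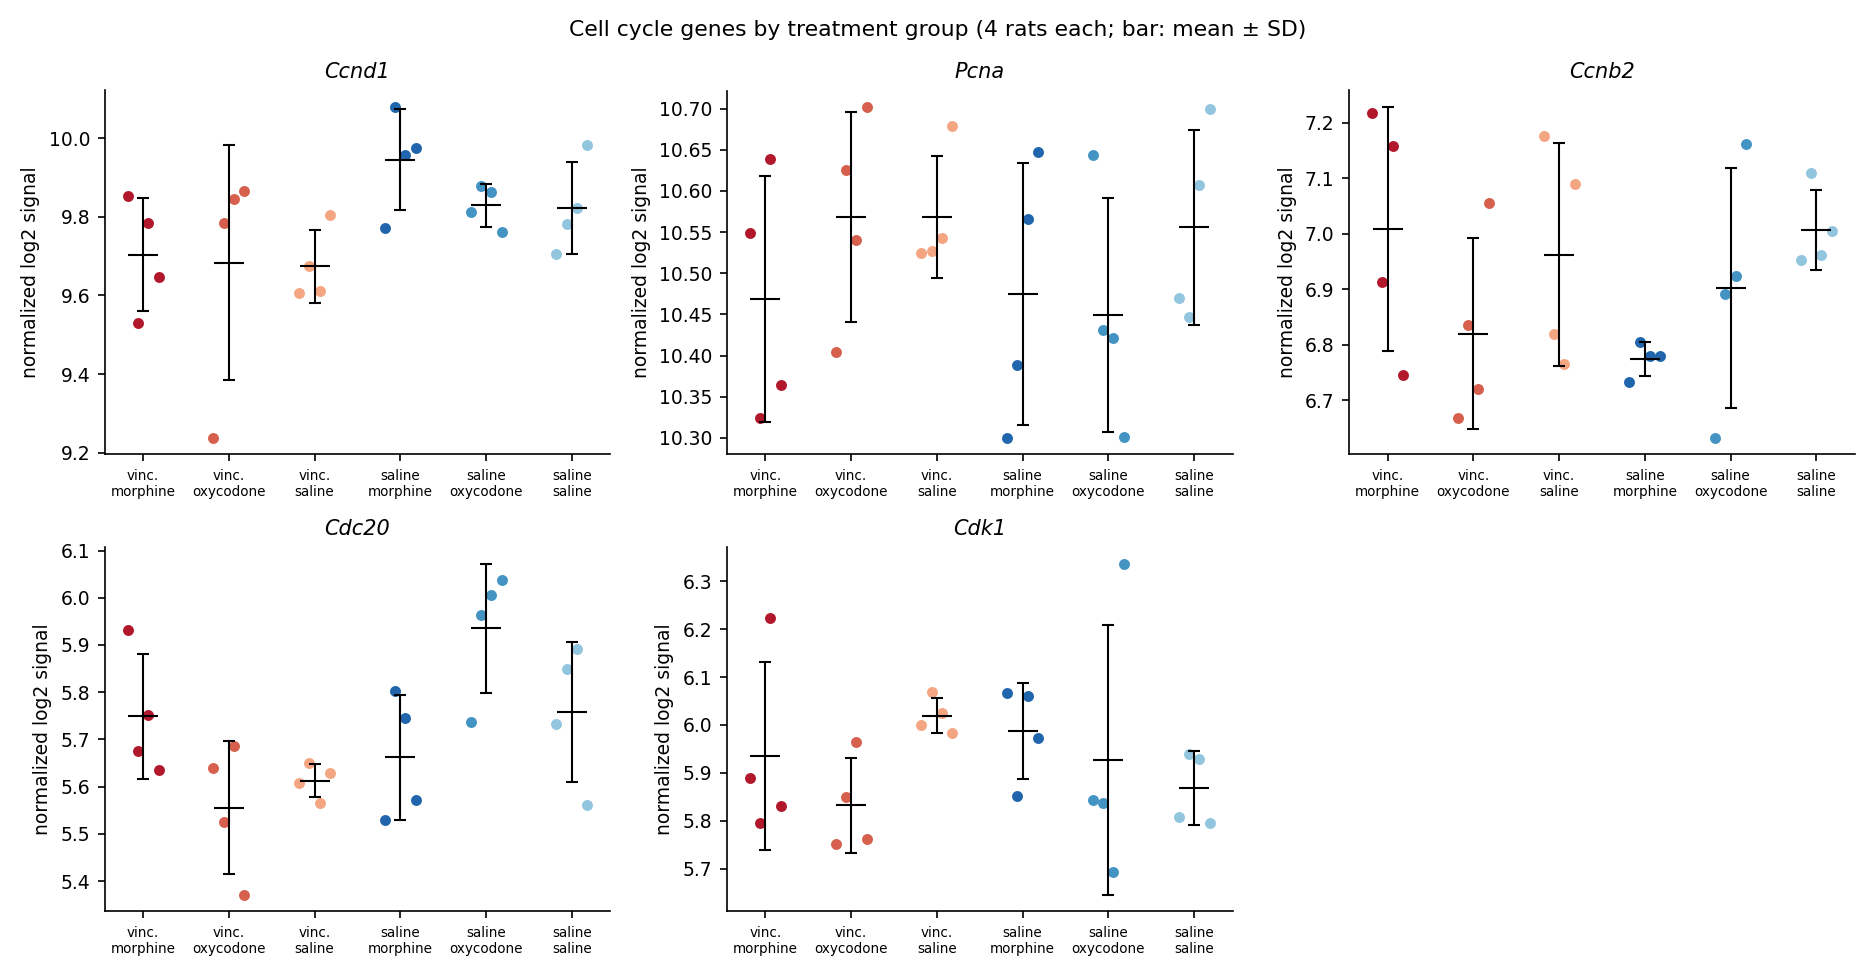
Normalized log2 signal of the 5 members above background in each group, 1 point per rat, with the mean and SD of the 4 rats as bars and vincristine-treated groups left of control groups. The saline-oxycodone treated rats stand highest for Cdc20 and the lowest point of Ccnd1 is a vincristine-oxycodone treated rat. Vertical axes differ between panels and do not start at 0.

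Counted over 13 comparisons, 5 members gave 65 differences. Of these 0 passed an adjusted p of 0.05 in limma and 6 had an unadjusted p under 0.05, all of them of Ccnd1 or Cdc20. The share of all probes at such an unadjusted p was 0.753% to 3.81% depending on the comparison and filter. With the sets as a block 0 passed the adjusted threshold and 13 had an unadjusted p under 0.05, 6 of Cdc20, 5 of Ccnb2 and 2 of Ccnd1, where 2.64% to 10% of all probes did so depending on the comparison and filter. The lowest adjusted p was 0.624, and 0.237 with the sets as a block. In vincristine-morphine against saline-morphine 0.071% of the 7043 probes and 0.0863% of the 12740 passed, in vincristine-oxycodone against saline-oxycodone 0.0142% and 0.00785%, and in vincristine-saline against saline-saline 0.0284% and 0.0157%. In the other 9 comparisons 0% passed of either set of probes. Of the 45 differences between groups of 4 rats, 4 had groups that did not overlap, those of Cdc20, Ccnb2 and Cdk1 given above, while 0.625% to 1.86% of all probes did so depending on the comparison and filter.

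**Figure D3:**
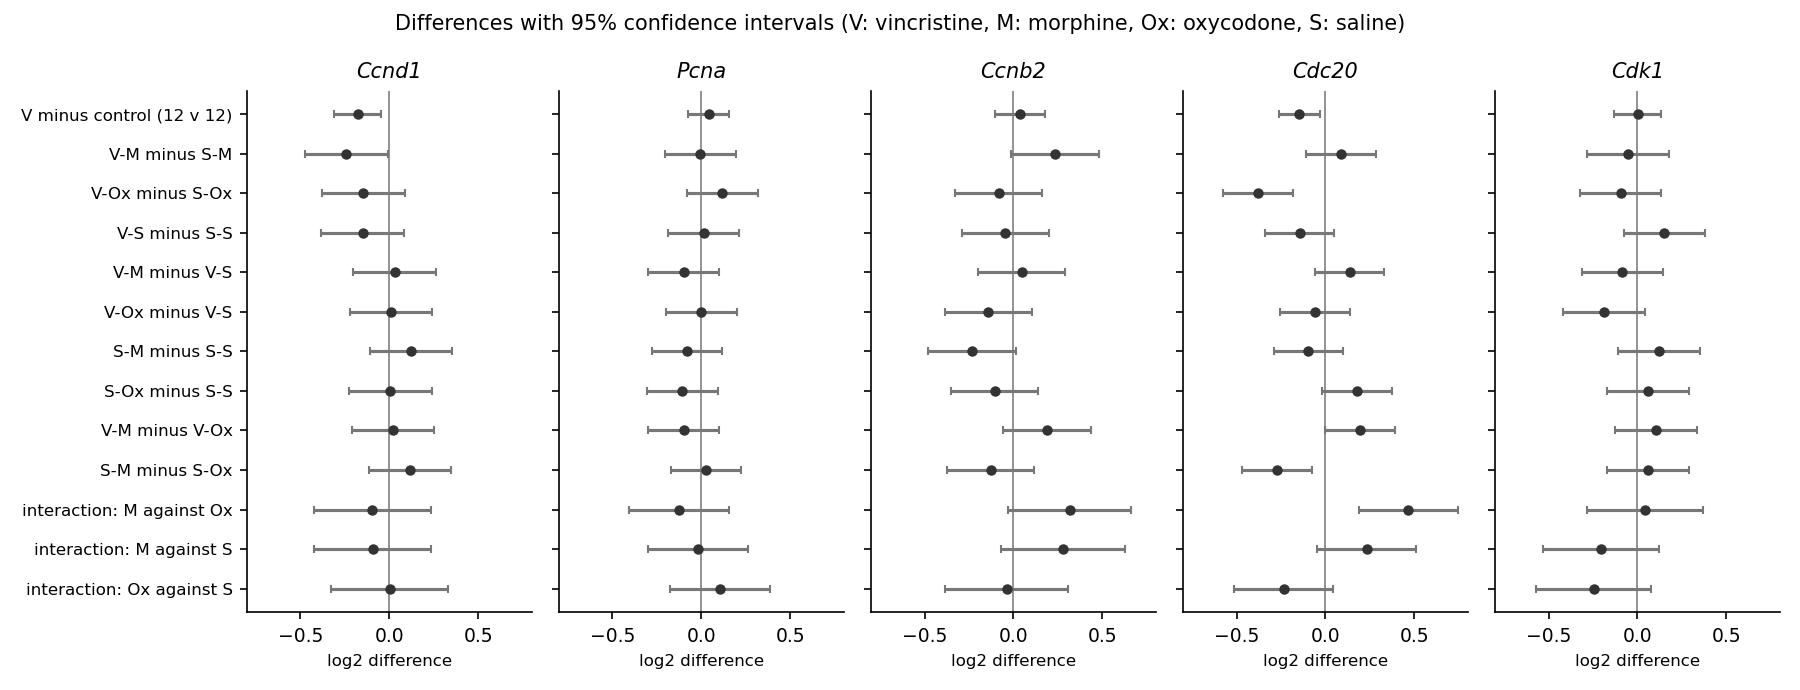
Differences of the 5 members in all 13 comparisons on the log2 scale, each point with its 95% confidence interval, the group named before "minus" being higher where the point is right of 0. In the plot the intervals of Ccnd1 in 2 comparisons and of Cdc20 in 4 leave out 0, and all other intervals include it.

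The 5 members did not vary together over the rats. After the mean of each set was removed, Pearson r between pairs of members over the 24 arrays was between -0.41 (Pcna with Cdc20) and 0.36 (Ccnb2 with Cdc20). Those arrays share the normalization, and the r are given as a description. The named genes most like Ccnd1 over the same arrays were Bace2 (r 0.82), Sostdc1 (0.78) and Slco1c1 (0.74), and those most like Pcna were Strn3 (0.91), Spata6 (0.84) and Cept1 (0.84). For Ccnb2 they were Nucks1 (0.70), Sfr1 (0.66) and Mbd6 (0.66), for Cdc20 Fbxo7 (0.75), Mfng (0.72) and Flii (0.72), and for Cdk1 Fhl1 (0.72), Pex14 (0.67) and Myl9 (0.66). No member was among the genes most like another member.

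The other genes of the cell cycle were taken from 6 lists. Of 37 other mitosis and spindle genes with a probe, 7 (18.9%) were above the strict level on at least 4 arrays, against 5435 of 13336 named genes (40.8%). The share was 16 of 34 (47.1%) for DNA replication, 8 of 14 (57.1%) for G1 cyclins, kinases and the Rb family, 9 of 21 (42.9%) for p53 and its targets, 10 of 14 (71.4%) for the anaphase-promoting complex and 1 of 5 (20%) for the kinase inhibitors. The lowest share was that of the mitosis and spindle genes and the highest that of the anaphase-promoting complex, as counts with no test.

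In vincristine-treated against control rats, 0 of the 51 genes kept from these lists passed the adjusted threshold in limma, and 1 (Tfdp2) had an unadjusted p under 0.05. Of all 7043 probes 0.199% and 2.77% did so. Of the 51 differences 33 were positive, as were 49.4% of those of all 7043 probes, whose median was -0.00089. The medians were 0.030 for mitosis and spindle genes (4 of 7 positive), 0.023 for DNA replication (10 of 16), 0.0062 for G1 genes (5 of 8), 0.023 for p53 and its targets (8 of 9) and 0.0019 for the anaphase-promoting complex (5 of 10).

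Among the mitosis and spindle genes the smallest p-values belonged to Smc2, a condensin subunit, at 0.096 (SE 0.075), Cks1b, a kinase subunit, at 0.062 (SE 0.069), the tubulin Tubb4b at -0.051 (SE 0.075) and the kinesin Kif22 at 0.059 (SE 0.097). Of the replication genes these were the primase subunit Prim2 at 0.089 (SE 0.052), the DNA ligase Lig1 at 0.069 (SE 0.047), the clamp loader subunit Rfc4 at 0.078 (SE 0.065) and the polymerase subunit Pold2 at 0.086 (SE 0.075). None of these 8 differences passed the adjusted threshold, at adjusted p of 0.9996 in limma.

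The dimer partner of E2F factors, Tfdp2, had the smallest p of all these genes. It averaged 6.98 (range 6.71 to 7.38) in vincristine-treated rats and 6.76 (range 6.55 to 6.90) in control rats, a difference of 0.22 (SE 0.066, unadjusted p 0.0028 and adjusted p 0.516 in limma). With the sets as a block its adjusted p was 0.0344, under the threshold, where 0.596% of all probes passed. Rbl2, a pocket protein of the Rb family, had -0.041 (SE 0.068), E2f1 0.050 (SE 0.092) and Ccnh, the cyclin of the Cdk-activating kinase, 0.024 (SE 0.053).

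Targets of p53 other than Cdkn1a were measurable. Perp differed by 0.046 (SE 0.052), Mdm2, the ligase that degrades p53, by 0.041 (SE 0.064), Aen by 0.077 (SE 0.14) and Sesn1 by 0.025 (SE 0.048). Of the anaphase-promoting complex, Cdc26 differed by 0.044 (SE 0.042), Anapc5 by -0.038 (SE 0.044), Cdc27 by 0.046 (SE 0.074) and the ubiquitin-conjugating enzyme Ube2s by 0.026 (SE 0.056). The 1 kinase inhibitor kept, Cdkn1b, which encodes p27, differed by 0.087 (SE 0.16). None passed the adjusted threshold in limma, and over all 13 comparisons 0 genes of these lists did, with 1 call, that of Tfdp2, when the sets were a block.

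Among the cell type lists, that of red blood cells had genes past the adjusted threshold. Of 22 erythroid genes with a probe 11 were kept, all 11 higher in vincristine-treated rats, with a median difference of 1.18. Of these, 7 passed the adjusted threshold in limma, against 0.199% of all 7043 probes. The mean of those 11 genes was 9.73 to 10.91 in vincristine-treated rats, against 8.23 to 9.20 in control rats. Skeletal muscle had 9 of 15 genes kept, 0 past the adjusted threshold and 1 at an unadjusted p under 0.05 (2.77% of all probes). Its median difference was 0.80, with a list mean of 6.75 to 10.07 in vincristine-treated rats, against 6.34 to 10.43 in control rats. Fibroblast and matrix genes, 11 of 12 kept, had a median of -0.060 with 2 of 11 positive, and a list mean of 9.45 to 10.03 against 9.63 to 10.08 in control rats. Their part in the values of Ccnd1 and Cdc20 was not tested. Satellite glia had a median of -0.062 (1 of 6 positive), myelinating Schwann cells 0.023 (3 of 5), macrophages 0.050 (4 of 7), endothelial cells 0.020 (2 of 4) and sensory neurons -0.040 (4 of 11), and of 10 lymphocyte genes 0 were kept. The list mean of satellite glia was nonetheless 10.91 in vincristine-treated and 10.90 in control rats. That of myelinating Schwann cells was 10.21 in vincristine-treated and 10.24 in control rats.

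**Figure D4:**
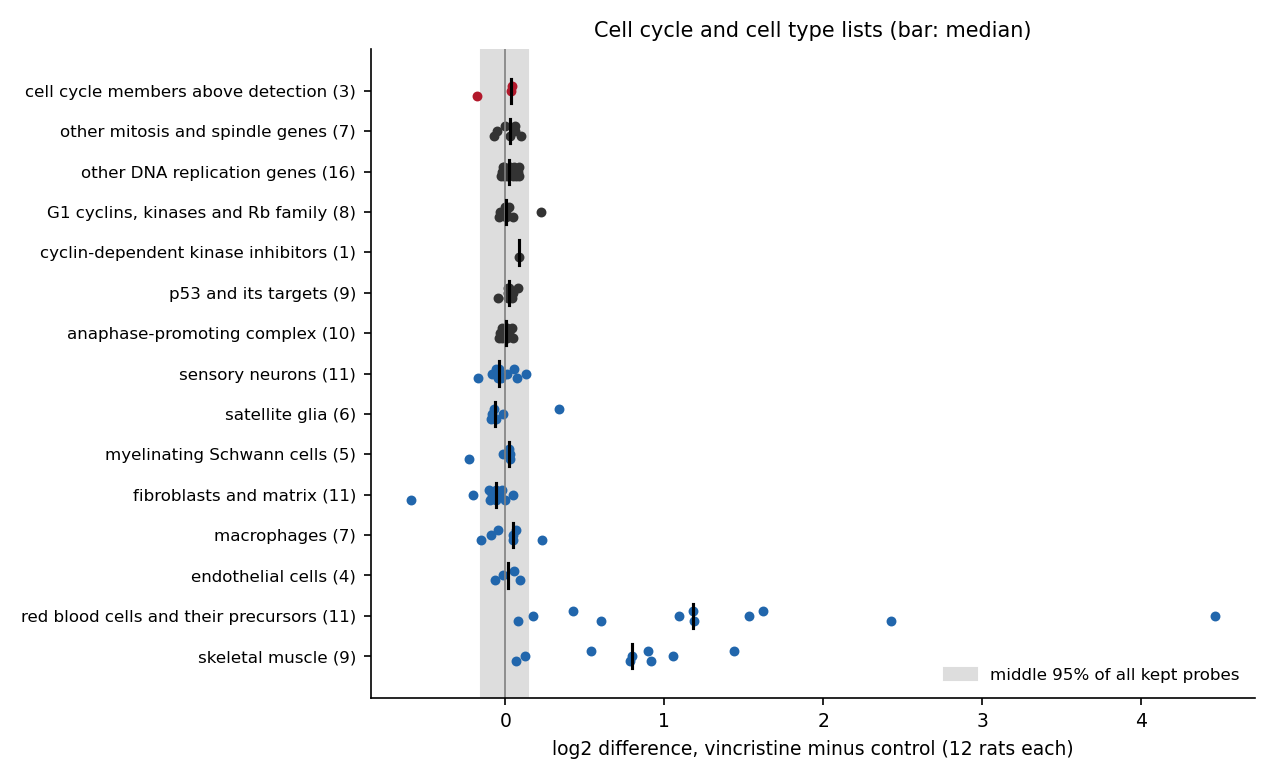
Differences of vincristine-treated minus control rats on the log2 scale for the 3 members above the strict detection level, for the other cell cycle lists and for the cell type lists, 1 point per gene with a bar at the median and the number of genes in brackets. The grey band holds the middle 95% of all 7043 probes. Genes of red blood cells and of skeletal muscle spread to the right, while Ccnd1 (-0.18) and Tfdp2 (0.22) are the cell cycle genes outside the band.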

How the data were processed

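The authors deposited bead summary intensity values that are not normalized, the detection p-values beside them, and log2 values, which equal the log2 intensities after quantile normalization to within 0.0014. No source names the scanning and summary software. Intensities were background-corrected and quantile-normalized with neqc (offset 16) of limma 3.58.1 in R 4.3.3 (package data.table, version 1.17.8). The strict filter kept the 7043 probes whose detection p did not exceed 0.0005 on 4 or more arrays, and Cdk1 and Cdc20 were tested with a looser filter of 0.05 (12740). Probes were named through the platform annotation, with symbols updated by Entrez identifier for 13747 probes, by accession for 5 and not updated for 35. A model of 6 group means was fitted with lmFit and eBayes (18 residual degrees of freedom), with 13 contrasts and Benjamini-Hochberg adjustment at 0.05 within each. Single genes were also tested by two-sided permutation of the rats compared, which ignored the sets and, for vincristine-treated against control rats, the second treatment. The fit was checked on simulated data.

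All member probes were named, with values given where the unadjusted p was under 0.05 and, for vincristine against control, for every kept member. From each list up to 4 kept genes with the smallest p in that comparison were named, and for each member the 3 genes with the highest r. Groups that did not overlap were described after their values were seen. The members and lists were chosen with earlier results of these data known. Alternatives were the authors' log2 values, other detection filters, quantile normalization alone, centring on the median, fewer arrays, an intensity trend, array weights, replicate and set blocks, the test of the study's methods (two-way analysis of variance and Student's test, unadjusted) and leaving out each array. Replicate numbers, which run in sample order within each group, matched the arrays less well than the sets did. Arrays give no read depth, and the number of 4 arrays per group limits the precision. Python 3.11.15 and matplotlib 3.10.9 drew the figures.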

Additional observations from a re-analysis of the deposited data

Results flagged for a closer look

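Of the 30 groups of 4 rats formed by 5 members and 6 groups, 2 had an array that stood apart by Dixon's ratio of gap to range (at its 95% critical value), where chance gives about 1 in 20, or 1.5. Ccnd1 was 9.24 in vincristine-oxycodone replicate 1 (ratio 0.871), while the other vincristine-oxycodone treated rats had 9.78 to 9.87. Pcna was 10.68 in vincristine-saline replicate 4 (ratio 0.881), while the other vincristine-saline treated rats had 10.52 to 10.54.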

How the results depend on the processing

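Members past the adjusted threshold were counted among Ccnd1, Pcna and Ccnb2. Cdk1 and Cdc20 entered the count only with no detection filter or with the looser one. Otherwise Cdk1 and Cdc20 were refitted for chosen comparisons only, at adjusted p of at least 0.235 in limma. The count was 0 in each of the 13 comparisons under every alternative run and 0 to 0 in the 24 fits without 1 array, with 1 exception. With the methods' t-test and analysis of variance, unadjusted, 1 member (Ccnd1) passed between vincristine-treated and control rats, where 184 of 6322 probes did so, and 0 passed after Benjamini-Hochberg adjustment, where 9 did. By the same unadjusted test outside that filter, Cdc20 passed between vincristine-treated and control rats, as did 357 of 10730 probes (3.33%), and between saline-morphine and saline-oxycodone treated rats, as did 336 of 11274 (2.98%). With the replicate number as a block the count was 0. These numbers did not pair the arrays: deviations correlated by 0.045 on average, with 30 of 60 pairs over 0.1 and 5 of 24 arrays closest to their own number, against 0.41, 53 of 60 and 19 of 24 for the sets.

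The sign of Cdk1 between vincristine-treated and control rats turned to -1.4e-05 without background correction, -2.5e-06 on the authors' values and in the methods' test, adjusted or not, and -0.057 when the 6 arrays with high muscle transcripts were left out, a setting in which Ccnb2 was -0.030. Without 1 array at a time that of Cdk1 was -0.031 to 0.046, turning in 11 of 24 fits, that of Ccnd1 -0.20 to -0.13, that of Cdc20 -0.17 to -0.13, and Cdc20 of vincristine-oxycodone minus saline-oxycodone -0.45 to -0.32 with adjusted p of at least 0.235 in limma. Vincristine-morphine minus vincristine-oxycodone for Cdc20 was 0.073 to 0.24 over the other alternatives, and its interaction 0.24 to 0.51. The causes were not tested. Median centring moved the median of all probes to -0.12 in vincristine-morphine minus saline-morphine, where Ccnd1 was -0.37 and Ccnb2 0.12, to 0.12 in saline-morphine minus saline-saline, where Ccnb2 was -0.12, and to -0.19 in the interaction with morphine against oxycodone, where Cdc20 was 0.24. The 3 members at background have no values that these settings can test.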
